A study of Mus musculus with 25 samples.

Results

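The genotype-by-running interaction asks whether wheel running changed a transcript by a different amount in Achilles tendons of AMPKcKO mice than in those of wild-type mice. For each gene it is the log2 difference between AMPKcKO Wheel Runner and AMPKcKO Cage Activity tendons, minus the same difference in wild type (WT). A positive value means that running moved the transcript further up, or less far down, in AMPKcKO (written cKO). Chosen by the sample titles, all 25 of the series' 25 libraries enter it: 7 WT cage (4 female, 3 male), 6 WT running, 6 cKO cage and 6 cKO running (3 of each sex in each). All mice were 3 months old, each library was made from total RNA of Achilles tendon, and the series title names loss of AMPKα1 as the genetic change. Neither the promoter that drives Cre, the deleted exons, nor the length of running is given in the sources used here, and the labels name no littermate or Cre-only control. Nothing states how many animals went into a library, so p-values measure the spread between libraries. The library names point to a common and a less common project. The less common project holds replicate 4 of the WT cage females and replicate 3 of the cKO cage males. Every runner came from the common project, so project is partly tied to running in both genotypes.

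AMPK is a kinase of a catalytic α, a scaffold β and an energy-sensing γ subunit. It is switched on when ATP runs low, as in working muscle, and then favours glucose uptake, fatty acid oxidation, mitochondrial renewal and autophagy while it restrains lipid synthesis and mTORC1. Tendon is a collagen-rich tissue of few cells that carries muscle force to bone, and its cells adjust matrix genes to load. Around the tendon fibres lie a sheath, vessels, nerve, mast cells, macrophages and fat, and the Achilles tendon joins the calf muscle, so a whole-tendon sample can hold RNA of all of these.

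Library totals were 13193228 to 45724243 counts (median 24538109). Prkaa1 (ENSMUSG00000050697), which encodes AMPKα1, stood at 13.4 to 31.2 CPM (median 23.1) in WT cage, 15.6 to 31.1 (median 23.4) in WT running, 13.9 to 21.2 (median 17.8) in cKO cage and 16.2 to 22.6 (median 18.6) in cKO running libraries. All 4 groups overlapped, and its interaction was 0.09 ± 0.23 (SE), with a 95% interval of -0.39 to 0.57 (edgeR, unadjusted p = 0.706). The counts cover the whole gene, so they can include transcripts that lack deleted exons. Cre counts were 0 in all WT libraries and above 0 in all cKO libraries but cKO cage female replicate 3. The reporter eGFP was above 10 CPM in all 6 cKO runners, 2 of 6 cKO cage libraries, 1 of 6 WT runners and no WT cage library, so its carriage differed between the groups compared. WT running female replicate 2 and male replicate 3 stood apart on the second principal component. WT cage female replicate 1 and cKO running male replicate 2 had the smallest shares of muscle transcripts, 4.71% and 4.37%, against at least 8.23% in the other 23. The WT running and cKO cage groups thus lack such a library, and values are also given without that pair where they moved by over 1.5 times.

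No gene passed the test for the interaction. With edgeR's quasi-likelihood F-test, 0 of 19155 genes (0%) had a Benjamini-Hochberg adjusted p under 0.05, and the smallest adjusted p was 0.672. DESeq2 and limma-voom with quality weights also called 0. With no filter on low counts edgeR called 65 of 42619 genes, 50 of them among the 19155, and these included Efcc1, Sptbn5, Paxbp1, Cnp, Actg2, Myl9, Flg, Timp4 and Sbk2, described below. At an unadjusted p under 0.05 stood 1377 genes with edgeR, 1570 with DESeq2 and 1709 with limma-voom. Of the 1377, 864 were positive (4.51% of the genes tested) and 513 negative (2.68%). Over all genes the median interaction was 0.02 (log2), 51.7% were positive, and the median SE was 0.34. For 9199 genes (48.0%) the 95% interval lay within a 2-fold difference in either direction. For the other 9956 it reached past 2-fold, so that a difference of that size was not excluded for them. Without WT cage female replicate 1 and cKO running male replicate 2, 680 genes had an unadjusted p under 0.05. On the authors' FPKM scale, as log2(FPKM + 1) in limma, the median over all genes was 0.15 and the split was 1196 positive and 268 negative, so values on that scale are read against its own median.

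The genes named first are the 12 negative and 12 positive ones with the smallest interaction p and a mean level of at least 1 log2 CPM, picked whether or not they passed. Their values describe this choice and support nothing further: each had an adjusted p of 0.672 (edgeR, Benjamini-Hochberg). Thrb (ENSMUSG00000021779, chromosome 14, 17660261 to 18038090, GRCm38), a nuclear receptor for thyroid hormone, had the smallest p. It stood at 14.8 to 24.4 CPM (median 19.7) in WT cage, 21.3 to 31.5 (median 22.5) in WT running, 19 to 27.9 (median 24.6) in cKO cage and 16.1 to 18.8 (median 17.2) in cKO running libraries. All 6 cKO runners lay below all 6 cKO cage libraries, while the WT runners overlapped the upper WT cage libraries. Its running difference was 0.31 ± 0.12 in WT and -0.46 ± 0.13 in cKO, and the interaction was -0.77 ± 0.17 (SE, unadjusted p = 0.000151). The value was -0.74 in females and -0.78 in males, and between -0.83 and -0.67 with any 1 library left out. Thra, which encodes the other thyroid hormone receptor, had an interaction of 0.19 ± 0.14 (unadjusted p = 0.166), or 0.12 without the pair of libraries with little muscle RNA.

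Hagh (ENSMUSG00000024158, chromosome 17, 24840143 to 24864450) encodes glyoxalase II, which clears the adducts formed from methylglyoxal. Its level was 6.36 to 13.2 CPM (median 11.6) in WT cage, 10.5 to 20.6 (median 16) in WT running, 9.74 to 15.4 (median 11.7) in cKO cage and 6.09 to 12.4 (median 9.79) in cKO running libraries. WT runners were mostly above WT cage libraries and cKO runners mostly below cKO cage libraries, with overlap in both pairs, and the interaction was -0.85 ± 0.25 (unadjusted p = 0.002). Cox15 (chromosome 19, 43733254 to 43753000), needed to make the haem A of cytochrome c oxidase, stood at 13.4 to 21.5 CPM (median 17.5) in WT cage, 17.1 to 24 (median 20.8) in WT running, 17 to 20.9 (median 19.3) in cKO cage and 13.5 to 17.7 (median 15.3) in cKO running libraries. In both genotypes runners and cage libraries overlapped, with cKO runners mostly lower, and the interaction was -0.59 ± 0.17 (unadjusted p = 0.00204). Eci2, an isomerase used in the oxidation of unsaturated fatty acids, stood at 30.7 to 34.4 CPM (median 31) in WT cage, 30.7 to 35.8 (median 32.7) in WT running, 31 to 43.8 (median 34.2) in cKO cage and 20.8 to 30.7 (median 27.2) in cKO running libraries. Here every cKO runner was below every cKO cage library and the WT groups overlapped almost fully, giving -0.46 ± 0.14 (unadjusted p = 0.00244).

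Siah2, a ubiquitin ligase gene, was at 6.94 to 10.6 CPM (median 8.85) in WT cage, 8.58 to 13.3 (median 10.3) in WT running, 7.6 to 10.2 (median 8.81) in cKO cage and 4.17 to 8.71 (median 7.06) in cKO running libraries, with an interaction of -0.73 ± 0.21. Both genotypes overlapped, with 1 cKO runner far below the rest. Mosmo, a modulator of the Hedgehog signal transducer Smoothened, was at 13.8 to 15.4 CPM in cKO cage and 8.55 to 12.4 in cKO running libraries, which did not overlap, and had -0.50 ± 0.15. The PP2A regulatory subunit gene Ppp2r3c likewise did not overlap in cKO, at 12.3 to 19.0 CPM in cage and 6.34 to 11.9 in running libraries, and had -0.58 ± 0.19. Pdf, a mitochondrial peptide deformylase, had -0.83 ± 0.26, Fads6, a member of the fatty acid desaturase family, -0.74 ± 0.24, Ccny, a cyclin, -0.38 ± 0.13, and Fam118b -0.58 ± 0.19. The pseudogene Ndufa12-ps had -1.73 ± 0.55, at 0.237 to 3.91 CPM, and its counts are uncertain because reads can be shared with its parent gene. These genes had a positive running difference in WT (0.05 to 0.77) and a negative one in cKO (-0.23 to -0.96), none of which was called in either genotype.

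The 12 positive genes had the reverse signs, with -0.32 to -0.86 in WT and 0.20 to 2.17 in cKO, again none called. Efcc1, which encodes an EF-hand protein, stood at 2.36 to 7.67 CPM (median 4.5) in WT cage, 1.53 to 3.13 (median 2.04) in WT running, 2.07 to 4.36 (median 3.02) in cKO cage and 2.57 to 7.87 (median 4.98) in cKO running libraries. Of the WT runners 4 lay below the WT cage range, while cKO runners reached above the cKO cage range, and the interaction was 1.60 ± 0.39 (unadjusted p = 0.000402). Meg3 (chromosome 12, 109541001 to 109571726), an imprinted long noncoding RNA, stood at 19.5 to 30.7 CPM (median 24.9) in WT cage, 12.7 to 20.9 (median 19.9) in WT running, 18.6 to 25 (median 22.1) in cKO cage and 20.1 to 44.3 (median 26.4) in cKO running libraries. The WT groups overlapped only slightly, the highest cKO runner was male replicate 2, and the interaction was 0.83 ± 0.21. Xrcc3, a gene of recombination repair, was at 2.88 to 5.23 CPM (median 3.84) in WT cage, 1.48 to 3.66 (median 2.75) in WT running, 1.57 to 3.21 (median 2.65) in cKO cage and 2.35 to 5.21 (median 4.7) in cKO running libraries, with 1.23 ± 0.31.

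Fam13b, a gene with a GTPase-activating domain, had the smallest SE of the 12. It stood at 29.3 to 36.7 CPM (median 30.2) in WT cage, 22.2 to 28 (median 25.6) in WT running, 24.7 to 32.2 (median 28.5) in cKO cage and 27.7 to 38.3 (median 31.8) in cKO running libraries. WT runners were all below WT cage libraries, the cKO groups overlapped, and the interaction was 0.52 ± 0.13 (unadjusted p = 0.000444). Ntf3, the neurotrophin-3 gene, stood at 3.55 to 8.73 CPM (median 4.21) in WT cage, 1.89 to 3.61 (median 2.65) in WT running, 3.11 to 5.08 (median 3.68) in cKO cage and 3.55 to 8.94 (median 4.53) in cKO running libraries, with 1.27 ± 0.34 (0.84 without the pair). Frmd4a, a FERM-domain scaffold, had 0.74 ± 0.19, Iqce, a component of the primary cilium, 0.77 ± 0.19, Dlg4, a scaffold of synapses, 0.67 ± 0.18, Hace1, a ubiquitin ligase, 0.83 ± 0.23, and Paxbp1, a partner of Pax3 and Pax7, 0.94 ± 0.25 (0.62 without the pair). Sptbn5, a spectrin gene annotated in GENCODE vM21 as a processed transcript, had the largest value of the 12, 2.75 ± 0.69. It stood at 1.79 to 13.3 CPM (median 3.77) in WT cage, 1.57 to 5.13 (median 2.9) in WT running, 1.44 to 5.55 (median 2.07) in cKO cage and 4.3 to 24.1 (median 9.12) in cKO running libraries. Its 4 highest libraries (cKO running female replicate 4 and male replicate 1, WT cage female replicates 3 and 1) were among the 5 with the highest mean level of Schwann cell genes, described below.

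**Figure D1:**
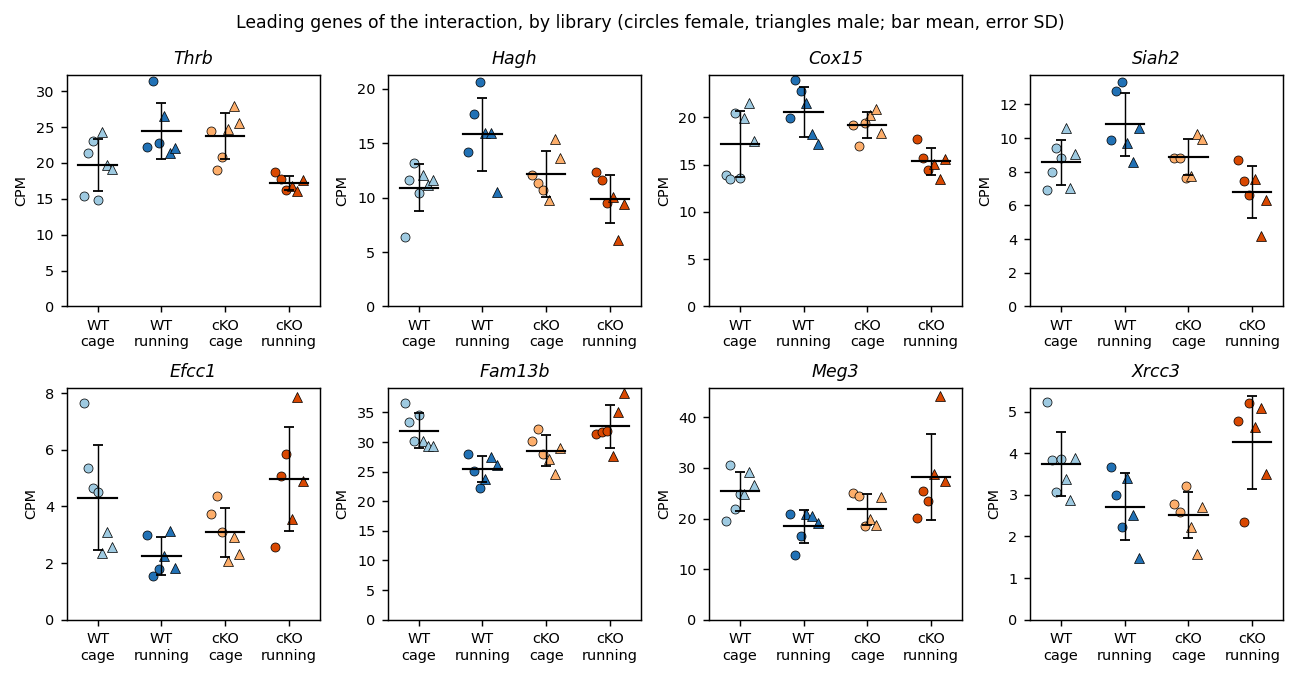
CPM of 4 negative (top) and 4 positive (bottom) genes with small interaction p, 1 point per library (circles female, triangles male), with group mean and SD (n = 7 WT cage, 6 in each other group). For Thrb the cKO runners lie at 16.1 to 18.8 CPM, below all cKO cage libraries. None of the 8 passed the test.

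Genes for which running itself was clear moved the same way in both genotypes. Running called 25 genes in WT (0.131% of genes tested) and 8 in cKO (0.0418%), and 6 were called in both. These WT and cKO contrasts share no library. With any 1 library left out the counts were 11 to 39 in WT and 3 to 60 in cKO, the highest of these without cKO running male replicate 2 and without WT cage female replicate 1. DESeq2 called 157 in WT and 208 in cKO, limma-voom 134 and 410, and edgeR with eGFP carriage as a covariate 16 and 0, so the counts do not order the genotypes. All 25 had the same direction in cKO as in WT, and all 8 had the same direction in WT as in cKO. The median size of the 25 was 1.15 (log2) in WT and 0.76 in cKO, and 24 of them were smaller in cKO. That set was picked by its WT value, which favours a smaller value in the other genotype. For the 8, picked by their cKO value, the medians were 1.33 in cKO and 1.34 in WT.

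Plekho1, a pleckstrin-homology adaptor gene, was the clearest. It stood at 17.8 to 21.4 CPM (median 19.3) in WT cage, 29.3 to 57.9 (median 43.2) in WT running, 15.9 to 21.7 (median 19.6) in cKO cage and 29.2 to 47.1 (median 33.3) in cKO running libraries. Runners of both genotypes lay above every cage library. The running difference was 1.15 ± 0.13 in WT and 0.87 ± 0.13 in cKO (edgeR adjusted p = 5.48e-05 and 0.00558), and the interaction was -0.28 ± 0.19 with a 95% interval of -0.66 to 0.10. Uchl1, a ubiquitin hydrolase of nerve and endocrine cells, stood at 2.59 to 12.8 CPM (median 10.5) in WT cage, 30.1 to 50.6 (median 38) in WT running, 7.4 to 13 (median 9.43) in cKO cage and 14.8 to 56.6 (median 29.4) in cKO running libraries. The runners again lay above every cage library of their genotype, with 2.05 ± 0.28 in WT and 1.70 ± 0.29 in cKO and an interaction of -0.35 ± 0.39 (-1.16 to 0.46). Ndrg4 had an interaction of -0.31 ± 0.28 (-0.89 to 0.27), Pde10a, a cyclic nucleotide phosphodiesterase, -0.37 ± 0.24 (-0.87 to 0.13), and Krt80, a keratin, -0.30 ± 0.24 (-0.80 to 0.21). Without the pair of libraries with little muscle RNA, Uchl1 had -0.01, Ndrg4 -0.09 and Pde10a -0.15. Rgcc, a cell cycle regulator, had -0.06 ± 0.31 (-0.70 to 0.57), with 0.58 in females and -0.72 in males (test of that difference: unadjusted p = 0.0301, edgeR adjusted p = 0.999).

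Among genes lower in runners, the water channel gene Aqp4 stood at 8.63 to 27.1 CPM (median 19.7) in WT cage, 4.31 to 17.8 (median 6.18) in WT running, 11.1 to 30.3 (median 16.6) in cKO cage and 3.09 to 8.91 (median 4.72) in cKO running libraries. In cKO the groups did not overlap, and in WT most runners were below the cage libraries. Its running difference was -1.39 ± 0.27 in WT and -1.84 ± 0.28 in cKO, and the interaction was -0.45 ± 0.37 (-1.22 to 0.32). Tbc1d4, a Rab-GAP that AMPK and Akt act on in glucose uptake, stood at 30.3 to 81.3 CPM (median 65) in WT cage, 25.2 to 49.7 (median 39.6) in WT running, 38.8 to 93 (median 67.9) in cKO cage and 27.5 to 37.1 (median 34.6) in cKO running libraries. In cKO every runner lay below every cage library, and in WT all but WT cage female replicate 1 (30.3) lay above every runner. The running difference was -0.73 ± 0.20 in WT and -0.97 ± 0.21 in cKO, and the interaction was -0.24 ± 0.28 (-0.82 to 0.35). The other 4 of the 6 lowest were Acot2, an acyl-CoA thioesterase (-0.19 ± 0.31), Padi2, a peptidylarginine deiminase (-0.41 ± 0.51), Crim1, a BMP-binding protein (-0.11 ± 0.17), and Nfil3, a repressor of clock output genes (0.38 ± 0.30), and each 95% interval included 0. Without the pair, Aqp4 had -0.29, Tbc1d4 -0.10, Acot2 -0.03, Padi2 -0.22 and Crim1 0.01. Of all 273 genes called for running as the mean of both genotypes, 258 had an interaction interval that included 0, 210 (76.9%) had one within a 2-fold difference beside 48.0% of all genes, and 15 had an unadjusted p under 0.05 beside 7.19% of all genes. All 273 had the same sign in both genotypes, a property that the call on the mean favours. That call also favours genes with small errors, and so narrow interaction intervals, so the share within 2-fold does not show more equal running differences.

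Some genes called in 1 genotype had an unadjusted interaction p under 0.05. Prpf4b, a splicing kinase gene, was called in WT, at 67.9 to 91 CPM (median 75) in WT cage, 43.9 to 63.4 (median 50.6) in WT running, 64.4 to 84.7 (median 73.3) in cKO cage and 52.8 to 78.7 (median 64.4) in cKO running libraries. WT runners lay below every WT cage library and the cKO groups overlapped, with -0.58 ± 0.10 in WT, -0.19 ± 0.10 in cKO and an interaction of 0.39 ± 0.14 (unadjusted p = 0.012). Decr1, a reductase of fatty acid oxidation, was called in cKO, at 61.7 to 96.3 CPM (median 81.7) in WT cage, 49.5 to 80.9 (median 63.6) in WT running, 71.5 to 137 (median 85.6) in cKO cage and 37.7 to 60.5 (median 53.6) in cKO running libraries. There the cKO groups did not overlap, and the values were -0.29 ± 0.14 in WT, -0.79 ± 0.15 in cKO and -0.51 ± 0.20 for the interaction (unadjusted p = 0.0205). The other 5 WT-called genes with an unadjusted interaction p under 0.05, named after their values were seen, were Relb (-0.44 ± 0.16), Mid1ip1 (-0.49 ± 0.22), Sbk2 (-1.26 ± 0.48), Pon2 (-0.38 ± 0.18) and Fam214b (-0.44 ± 0.20). None of these passed the interaction test (edgeR adjusted p = 0.672 each), so a call in 1 genotype alone is not a difference between them. Across all 19155 genes, which are not independent replicates, the running differences of WT and cKO had a Pearson correlation of 0.129 and a Spearman rank correlation of 0.119.

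**Figure D2:**
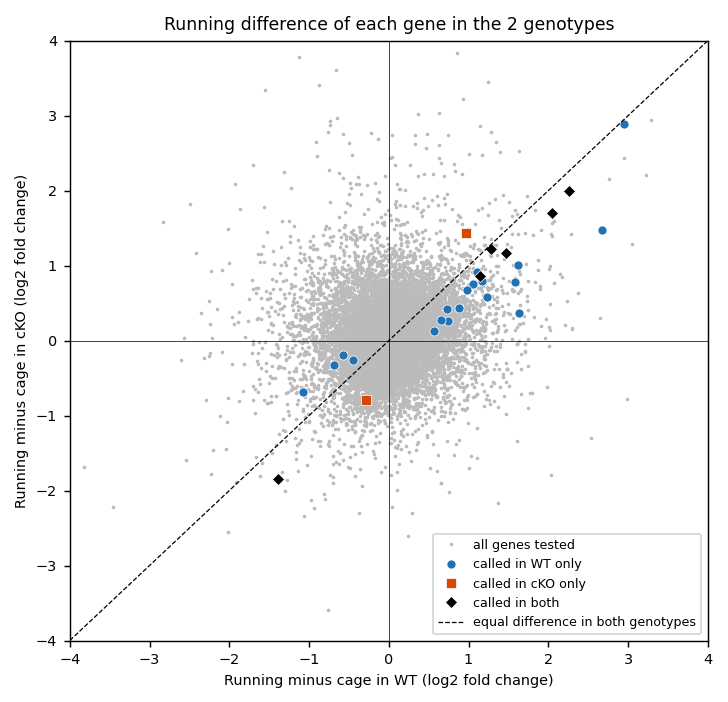
Running difference of each gene in WT (x axis) and cKO (y axis), both log2, with 6 genes outside the axes. All 27 genes called in either genotype lie in the quadrants of equal sign, and most of the WT-called ones lie nearer to 0 on the cKO axis.

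**Figure D3:**
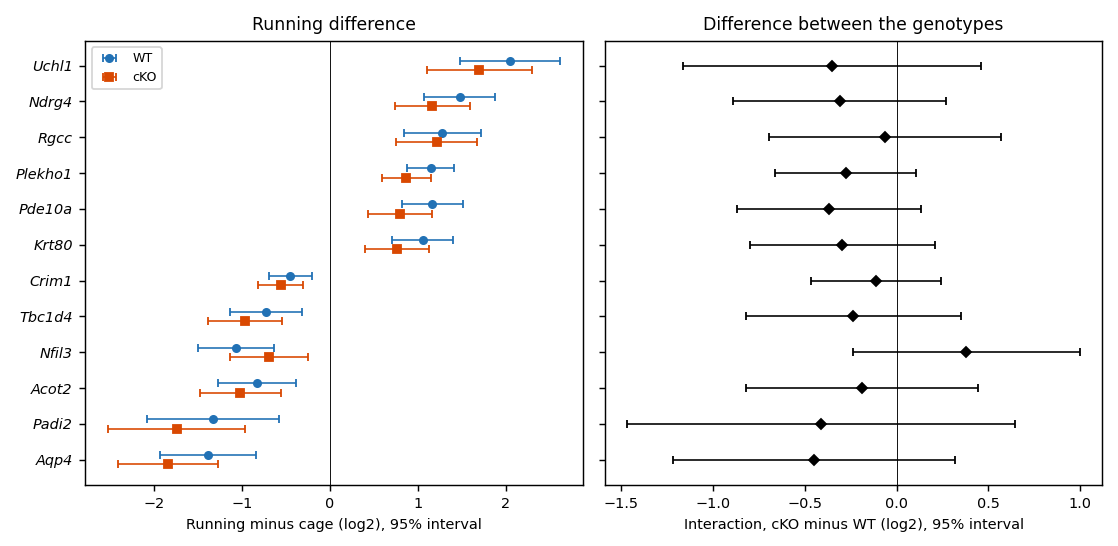
The 6 higher and 6 lower genes with the smallest p for running as the mean of both genotypes: running difference in each genotype (left) and interaction (right), log2 with 95% intervals from edgeR. Every interaction interval includes 0.

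Gene groups were read as counts of positive interactions, beside 51.7% positive and a median of 0.02 over all genes. Lists of energy metabolism and muscle lay on the negative side. Of 73 nuclear genes of oxidative phosphorylation, 3 were positive, the median was -0.47, and 11 had an unadjusted p under 0.05, all negative, beside 2.68% of all genes. Their running difference had a median of 0.05 in WT and -0.42 in cKO. The TCA cycle list had 1 of 19 positive (median -0.57, 6 with a small negative p), fatty acid oxidation 2 of 30 (-0.50, 6 such), mRNAs encoded by mitochondrial DNA 0 of 13 (-0.48, 1 such), mitochondrial ribosomal proteins 1 of 35 (-0.33, 3 such), and glycolysis and glycogen 6 of 26 (-0.52, none). PGC-1 and mitochondrial biogenesis genes were 5 of 24 positive (-0.32), proteasome subunits 2 of 31 (-0.28) and heat shock genes 5 of 22 (-0.29). No member of any list passed the test. On the log2(FPKM + 1) scale, with its median of 0.15 over all genes, all of these list medians were negative too, from -0.03 for PGC-1 genes to -0.39 for the TCA cycle.

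Fibre genes of the adjoining muscle had the same sign. Fast fibre genes were 1 of 30 positive (median -0.78) and slow fibre genes 0 of 15 (-0.61), with medians of 0.23 for running in WT and of -0.51 and -0.54 in cKO. The muscle share of the counts went from 15.1% ± 5.23 (SD, n = 7) in cage to 16.4% ± 4.33 (n = 6) in running libraries of WT. For cKO it was 14.6% ± 4.80 at cage activity and 10.2% ± 3.65 with running (n = 6 each). Its interaction was -5.70 percentage points, which did not pass an exact permutation test (two-sided p = 0.153, adjusted p = 0.306 over 2 values tested). That test exchanged genotype labels within cage and within running libraries, without regard to sex. It thus assumes no genotype difference in either activity, which is a stricter condition than no interaction. Without WT cage female replicate 1 and cKO running male replicate 2, the pair picked by this share, the interaction stayed negative but was smaller in size. The WT mean was then lower in running than in cage libraries. The other value, the share of mitochondrial rRNA, had -0.76 points (exact permutation p = 0.829, adjusted p = 0.829). In such a bulk sample, less tissue of a type and less RNA per cell cannot be told apart. The muscle level used as a covariate was the mean log2 CPM of the fast and slow fibre genes. With it, the oxidative phosphorylation list had 6 of 73 positive and a median of -0.17. The TCA list had 0 of 19 and -0.25, fatty acid oxidation 3 of 30 and -0.17, and glycolysis 7 of 26 and -0.08. Without WT cage female replicate 1 and cKO running male replicate 2 the medians were -0.28, -0.32, -0.30 and -0.26. The fibre genes had negative interactions themselves, so the covariate cannot tell less muscle tissue from less RNA per cell. The cause of the smaller medians was not tested.

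Among members of these lists, Cox5a, a subunit of cytochrome c oxidase, stood at 37.6 to 90.3 CPM (median 76.4) in WT cage, 52.4 to 116 (median 79.5) in WT running, 68.4 to 112 (median 73.5) in cKO cage and 16.3 to 70.0 (median 58.2) in cKO running libraries. The lowest library of all was cKO running male replicate 2, and the interaction was -0.89 ± 0.36 (-0.56 without the pair). Ndufa8, of complex I, had -0.56 ± 0.22. Pdhb, the E1 beta subunit of pyruvate dehydrogenase, stood at 52.8 to 124 CPM (median 108) in WT cage, 86.4 to 160.1 (median 114) in WT running, 87.8 to 167 (median 115) in cKO cage and 47 to 98.9 (median 95.5) in cKO running libraries, and had -0.71 ± 0.28. Mdh2, the mitochondrial malate dehydrogenase, had -0.68 ± 0.29. The mitochondrial mRNAs mt-Nd4l and mt-Co2 had -0.87 ± 0.42 and -0.65 ± 0.40, and the mitochondrial ribosomal protein genes Mrpl9 and Mrps7 -0.44 ± 0.16 and -0.57 ± 0.27. Glycolytic Gapdh had -0.76 ± 0.38, and Gys1, muscle glycogen synthase, -0.67 ± 0.36. Of the fibre genes, the fast myosin gene Myh2 had -1.01 ± 0.47, Tcap, which caps titin, -0.80 ± 0.40, Mybpc1, a myosin-binding protein of slow fibres, -0.83 ± 0.47, and Myoz2, a Z-disc protein, -0.75 ± 0.43. Each of these kept its negative sign without the pair of libraries, at -0.36 to -0.67.

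**Figure D4:**
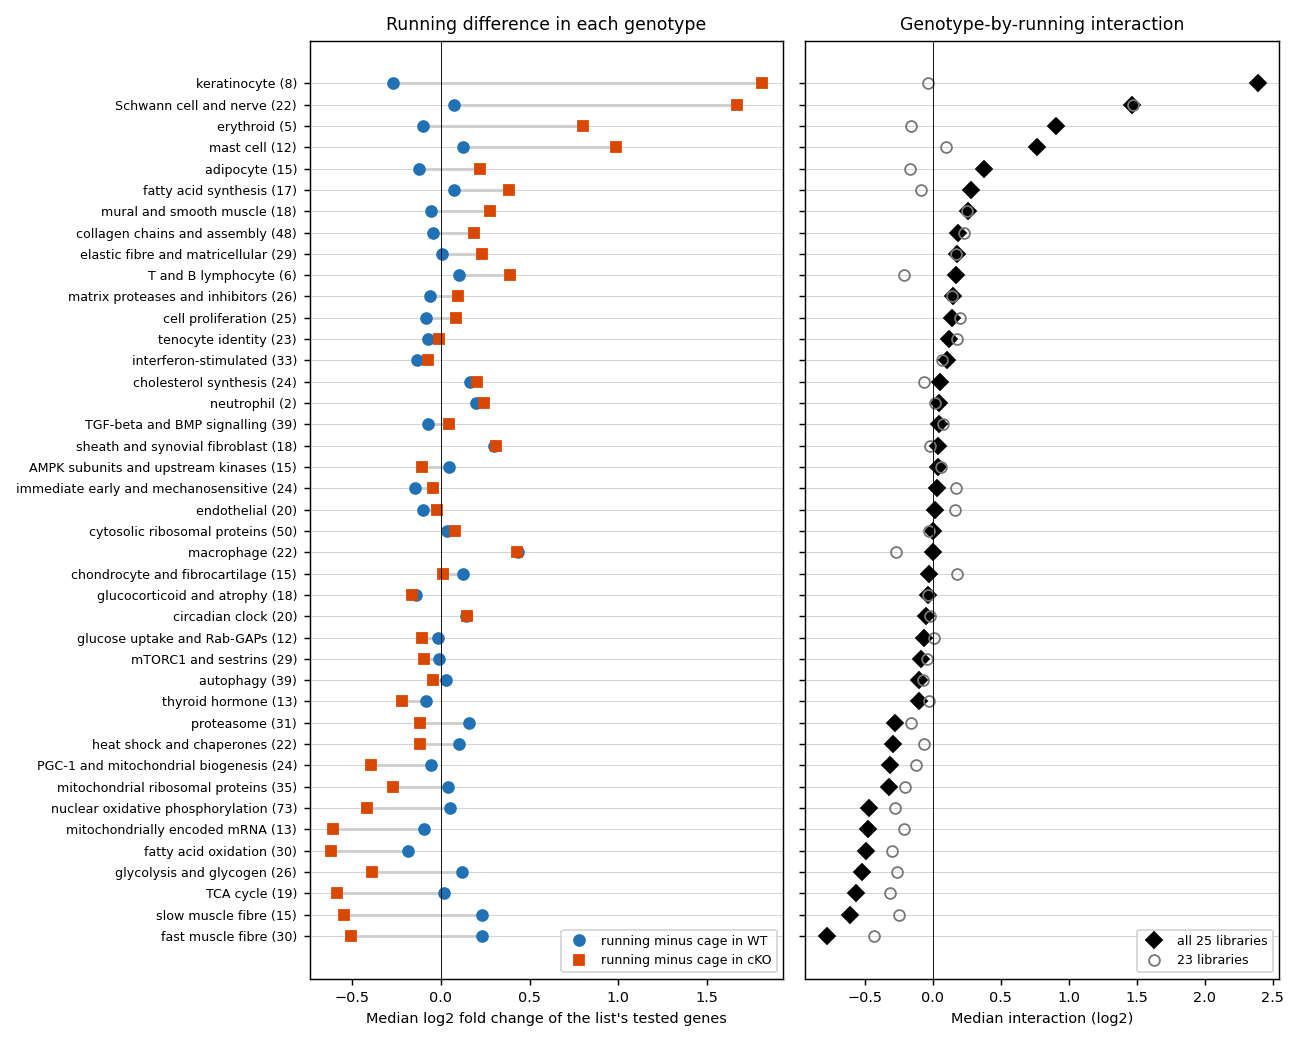
Medians of 41 gene lists (number of tested genes in brackets): running difference in WT and cKO (left) and interaction (right), log2, with all 25 libraries (filled) and with 23, that is without WT cage female replicate 1 and cKO running male replicate 2 (open). Schwann cell genes stay at 1.47 without the pair, while keratinocyte, erythroid and mast cell genes move from 2.39, 0.90 and 0.77 to -0.03, -0.17 and 0.09.

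Genes of Schwann cells, which wrap axons in myelin, lay on the positive side as a group. All 22 listed genes were tested and all 22 were positive, with a median of 1.46 and a range of 0.21 to 2.65, and 8 had an unadjusted p under 0.05 beside 4.51% of all genes. None passed over all genes. With both sexes together, running differences had a median of 0.08 in WT (15 of 22 positive) and 1.67 in cKO (22 of 22).

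Cnp (chromosome 11, 100574904 to 100591729), a myelin enzyme with the smallest p of the list, stood at 4.38 to 21.6 CPM (median 7.25) in WT cage, 4.66 to 9.04 (median 7.49) in WT running, 3.36 to 17.1 (median 6.72) in cKO cage and 5.77 to 40.4 (median 14.7) in cKO running libraries. Of the cKO runners, 4 lay within the cKO cage range and 2 above it, and the interaction was 1.46 ± 0.49 (unadjusted p = 0.00656, edgeR adjusted p = 0.672). Pmp22, a gene of the compact myelin of peripheral nerve, stood at 46.6 to 179 CPM (median 63.3) in WT cage, 46 to 129 (median 78.3) in WT running, 43.3 to 122 (median 66.5) in cKO cage and 60.8 to 436 (median 132) in cKO running libraries. All 4 groups overlapped, with the highest level in a cKO runner, and the interaction was 1.17 ± 0.50 (unadjusted p = 0.0272). Of the rest, Pllp had 2.65, Prx, a protein of the myelin sheath, 2.28, Ngfr, the neurotrophin receptor gene, 1.02, and the Schwann cell factor gene Sox10 1.74. Egr2, a factor of both myelinating Schwann cells and tendon cells that stands in 3 of the lists, had 1.34 ± 0.63.

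Averaged over the list, the level in log2 CPM was 0.537 to 3.65 in WT cage, 0.584 to 2.65 in WT running, -0.112 to 3.06 in cKO cage and 1.10 to 4.68 in cKO running libraries. Group means were 1.71 ± 1.33 (SD, n = 7), 1.61 ± 0.826 (n = 6), 1.38 ± 1.35 (n = 6) and 2.88 ± 1.17 (n = 6), so the spread between libraries of 1 group was about as wide as the differences between groups. The ranges of all 4 groups overlapped, and the 6 male cage libraries were among the 7 lowest. WT males had 0.537 to 0.753 in cage and 0.788 to 2.65 in running libraries, cKO males -0.112 to 0.510 and 2.68 to 3.39. Female ranges overlapped, with 0.876 to 3.65 and 0.584 to 2.35 in WT, and 1.45 to 3.06 and 1.10 to 4.68 in cKO. The small pooled running difference of WT thus joins higher levels in male runners with lower ones in female runners. The list median was 1.47 without WT cage female replicate 1 and cKO running male replicate 2 (22 of 22 positive), 1.18 with the muscle covariate (22 of 22), 1.36 with eGFP carriage as a covariate (22 of 22), and 1.21 to 1.76 with any 1 library left out. It was 1.68 in females (22 of 22) and 1.42 in males (21 of 22). How much nerve each dissected tendon held is not given, and its part in this result was not tested.

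Lists of mast cells, keratinocytes, erythroid cells and adipocytes were positive with all libraries, but near 0 or negative without the pair of little muscle RNA. Mast cell genes were 11 of 12 positive with a median of 0.77, and 6 of 12 with 0.09 without WT cage female replicate 1 and cKO running male replicate 2. Tpsb2, a mast cell tryptase with a near copy in Tpsab1, stood at 1.28 to 13.9 CPM (median 1.89) in WT cage, 1.38 to 5.25 (median 1.92) in WT running, 0.752 to 8.42 (median 3.48) in cKO cage and 2.91 to 11.8 (median 5.82) in cKO running libraries. WT cage female replicate 1 held the highest level of all 25 libraries, and the interaction was 1.39 ± 0.76, or 0.25 without the pair. Gata2, a factor of mast and endothelial cells, had 0.49 ± 0.25. Of 15 keratinocyte genes, 8 passed the filter on low counts and 7 of these were positive, with a median of 2.39 that became -0.03 without the pair and -0.33 with limma-voom and quality weights. Krt79 had 2.46 ± 0.97 (0.89 without the pair) and Flg, which encodes filaggrin of the skin surface, 3.60 ± 1.50. Flg was at 25.8 CPM in cKO running male replicate 2 and at no more than 1.52 CPM in any other library, and its interaction was -0.49 without the pair. Erythroid genes were 4 of 5 positive (median 0.90, or -0.17 without the pair), and adipocyte genes 12 of 15 (median 0.38, -0.17 without the pair and -0.10 with limma-voom).

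Mural and smooth muscle genes were 15 of 18 positive (median 0.25), and 14 of 18 (0.25) without the pair. Members ranged from -0.86 for Des, a muscle filament gene, to 3.57 for Actg2. Actg2, the enteric smooth muscle actin gene, had 3.57 ± 1.58 on levels of 0 to 22.9 CPM, and Myl9, a myosin light chain gene, stood at 6.42 to 20.0 CPM (median 7.57) in WT cage, 5.21 to 12.9 (median 6.49) in WT running, 7.41 to 38.1 (median 8.88) in cKO cage and 6.14 to 61.7 (median 21.5) in cKO running libraries. Its cKO runners covered the cKO cage range and reached above it, and the interaction was 1.44 ± 0.65 (1.26 without the pair). Actg2 shares long stretches with other actins, so its counts are uncertain. Endothelial genes were 10 of 20 positive, with a median of 0.02, and 17 of 20 with 0.16 without the pair.

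**Figure D5:**
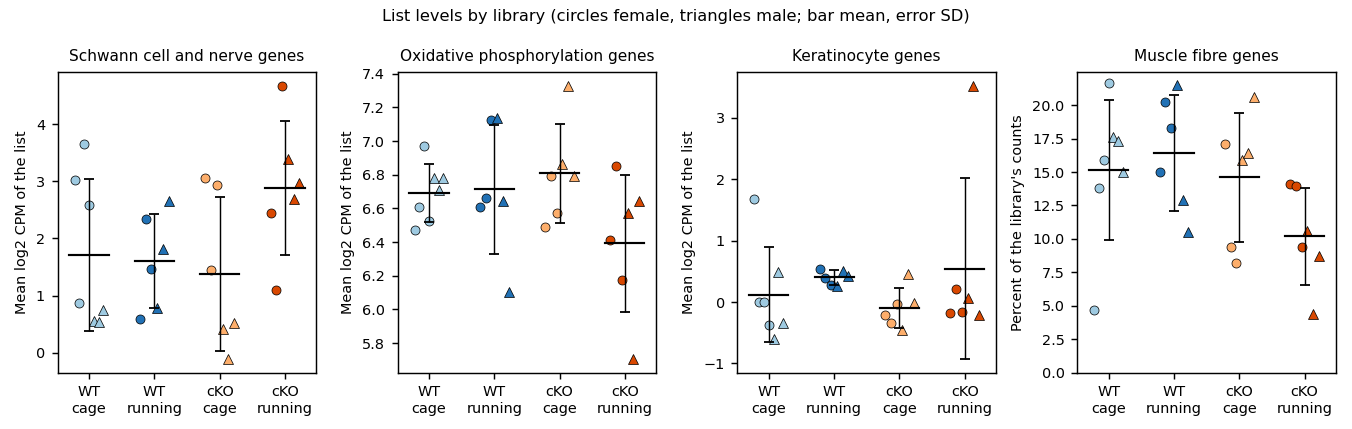
Mean log2 CPM of 3 gene lists and the percent of counts in muscle fibre genes, 1 point per library (circles female, triangles male), with group mean and SD. Schwann cell levels are spread widely in every group and are highest on average in cKO runners (2.88), the keratinocyte level stands out in 1 cKO runner (3.53), and the muscle share is lowest on average in cKO runners (10.2%).

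For the matrix that gives tendon its strength, collagen chain and assembly genes leaned to the positive side. Of 48, 36 were positive, the median was 0.19, and 7 had an unadjusted p under 0.05, all positive, beside 4.51% of all genes. Col5a3, a chain of the fibril-nucleating collagen V, stood at 131 to 349 CPM (median 157) in WT cage, 116 to 159 (median 141) in WT running, 113 to 186 (median 140.4) in cKO cage and 149.6 to 299 (median 190.4) in cKO running libraries. WT cage female replicate 1 was the highest of all and cKO running male replicate 2 the second highest, and the interaction was 0.80 ± 0.28 (unadjusted p = 0.00865), or 0.42 without them. Serpinh1, the collagen chaperone HSP47, stood at 85.9 to 149 CPM (median 142) in WT cage, 98.2 to 131 (median 114) in WT running, 99.2 to 178 (median 116) in cKO cage and 136 to 187 (median 144) in cKO running libraries, with 0.54 ± 0.20 (unadjusted p = 0.0122) and 0.47 without the pair. The main fibril chains had wider errors: Col1a1 had 0.55 ± 0.45 and Col1a2 0.51 ± 0.41, with negative running differences in WT (-0.58 and -0.46) and values near 0 in cKO (-0.03 and 0.05). Col3a1 had 0.67 ± 0.37. Among small proteoglycan genes of the list, named after their values were seen, Fmod had -0.05, Dcn -0.08, Bgn 0.02 and Lum -0.20. The list median was 0.23 without the pair and 0.14 with the muscle covariate. It was 0.56 in males (42 of 48 positive) and -0.01 in females (23 of 48), a difference for which no gene was called in the test of sex.

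Elastic fibre and matricellular genes were 26 of 29 positive with a median of 0.17. By sex the median was 0.06 in females (18 of 29 positive) and 0.47 in males (22 of 29), a list difference that was not tested. Emilin1, an elastic fibre glycoprotein gene, stood at 10.3 to 29.9 CPM (median 19.7) in WT cage, 12.6 to 22 (median 18.2) in WT running, 13.8 to 31.8 (median 18.2) in cKO cage and 20.6 to 36.8 (median 26.5) in cKO running libraries, with 0.78 ± 0.29, and Fbn2, fibrillin-2, had 0.95 ± 0.43. Matrix proteases and their inhibitors were 20 of 26 positive (0.15), with Adamts10 at 0.68 ± 0.27 (0.38 without the pair) and Timp4, a metalloprotease inhibitor gene, at 1.21 ± 0.49 (0.51 without the pair). Genes of tenocyte identity were 15 of 23 positive (0.12). Mkx, a transcription factor of tendon cells, had 0.49 ± 0.29, and Tnmd, a surface marker of tenocytes, had 0.05 on levels of 15.3 to 83.6 CPM. TGF-beta and BMP genes were 22 of 39 positive (0.04), with the BMP antagonist gene Chrd at 0.68 ± 0.24 and Id3, a BMP target, at 0.60 ± 0.25 (0.35 without the pair). Scx, the tendon factor whose annotated position lies inside Bop1, had 1.07 ± 0.71, and Bop1, a ribosome biogenesis gene, 0.50 ± 0.97. Both follow eGFP carriage: all libraries above 100 CPM of Scx carried eGFP, and with that carriage as a covariate the values were 0.71 and 0.56. Without WT running male replicate 2, the one WT carrier, and cKO cage female replicate 3 they were 1.80 and 1.65. The strand used in counting is not given, so reads of Scx and Bop1 cannot be told apart where they overlap.

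AMPK subunits and upstream kinases were 8 of 15 positive (median 0.03, none with an unadjusted p under 0.05). Prkaa2, the catalytic α2 subunit that prevails in muscle, stood at 26.9 to 114 CPM (median 103) in WT cage, 33.7 to 166 (median 82.2) in WT running, 55.3 to 144 (median 105) in cKO cage and 27.7 to 83.5 (median 59.4) in cKO running libraries, with -0.63 ± 0.45 (-0.29 without the pair). Camkk2, a kinase that activates AMPK, had 0.51 ± 0.27, and Prkag2, a γ subunit, 0.45 ± 0.24, or 0.26 and 0.14 without the pair. Autophagy genes were 14 of 39 positive (-0.10), with Atg16l1 at 0.48 ± 0.19 and Tfeb, a factor that drives lysosome genes, at -0.51 ± 0.24, or 0.25 and -0.30 without the pair. Genes of mTORC1 and sestrins were 11 of 29 positive (-0.09), and glucose uptake genes 4 of 12 (-0.07). Fatty acid synthesis was 11 of 17 positive (0.28, -0.09 without the pair and -0.03 with limma-voom), with Elovl6, an elongase, at 0.77 ± 0.36 and Acly, ATP-citrate lyase, at 0.47 ± 0.27 (0.16 without the pair). Cholesterol synthesis was 13 of 24 positive (0.05), with Fdft1, squalene synthase, at -0.53 ± 0.26 (-0.34 without the pair).

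In the immediate early and mechanosensitive list 15 of 24 were positive (median 0.03) and 4 had a positive value with an unadjusted p under 0.05 beside 4.51% of all genes. Piezo2, a stretch-gated channel gene, had 0.76 ± 0.32 and Jund, an AP-1 member, 0.34 ± 0.16, while Fos, Jun and Ccn2 had -0.22, 0.02 and 0.03. Clock genes were 9 of 20 positive (-0.05). Thyroid hormone genes other than Thrb were 5 of 12 positive.

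Macrophage genes had like median running differences in both genotypes when all libraries were pooled. They were 11 of 22 positive for the interaction with a median of 0.00, and running had a median of 0.43 in WT and 0.43 in cKO, with 20 of 22 positive in each. That likeness rests on the pair of libraries, since without them the interaction median was -0.27 with 1 of 22 positive. By sex, the interaction median was -0.17 in females (7 of 22 positive) and 0.32 in males (14 of 22). Sheath and synovial fibroblast genes had 0.30 in WT and 0.31 in cKO, an interaction median of 0.04 and 12 of 18 positive, and -0.02 without the pair. Cytosolic ribosomal proteins were 26 of 50 positive (0.00), and interferon-stimulated genes 21 of 33 (0.10).

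The interaction was also compared between the sexes. Testing the male against the female interaction called 0 of 19155 genes with edgeR, and 565 (2.95%) had an unadjusted p under 0.05. DESeq2 called 1, Arnt2, and limma-voom called 0, with 712 and 1051 at an unadjusted p under 0.05. Neither sex alone gave a called gene for the interaction itself. List medians were further from 0 in males for fast fibre genes (-1.47 against -0.18 in females), slow fibre genes (-1.05 and -0.16), glycolysis (-0.92 and -0.10), the proteasome (-0.53 and -0.05) and oxidative phosphorylation (-0.62 and -0.27). Interferon-stimulated genes were 27 of 33 positive in males (median 0.57) and 9 of 33 in females (-0.28). Tenocyte identity genes were 20 of 23 positive in males (0.47) and 8 of 23 in females (-0.19), with Mkx at 1.02 and 0.02. Heat shock genes were 3 of 22 positive in males (-0.55) and 11 of 22 in females (-0.0015). With 3 or 4 libraries in each cell of this design, those list differences were not tested.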

How the data were processed

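RNA-seq of 25 mouse Achilles tendon libraries was analysed from the authors' deposited gene-level expected counts, and the authors' deposited FPKM values served as an alternative. The submitters' processing notes name RSEM 1.3.3, STAR 2.7.8a, cutadapt 2.3 and FastQC 0.11.8, with GRCm38/mm10 as genome build; settings and strand are not given in the sources used here. Expected counts are estimates that can split reads between near-identical genes. They were rounded, filtered with filterByExpr (19155 of 55487 genes kept) and scaled by TMM, and edgeR 4.0.16 (R 4.3.3) fitted 4 group means plus sex with the quasi-likelihood F-test, Benjamini-Hochberg adjustment over all genes tested and a threshold of 0.05. CPM uses the same scaling, errors of log2 values are SE, and each list level is a mean of log2 CPM with a prior count of 2. Alternatives were DESeq2 1.42.0, limma 3.58.1 (voom, and log2(FPKM + 1) or log2(FPKM + 0.1)), RLE scaling, other filters, other covariates (none, muscle, mitochondrial rRNA, eGFP, library project, replicate block), 1 sex, and libraries left out.

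Genes named are Prkaa1, Prkaa2, Scx and Bop1; the 12 positive and 12 negative genes with the smallest interaction p; 2 genes of each list described by the same p; the 6 higher and 6 lower genes with the smallest p for running as the mean of both genotypes; and 3 of each direction for running in each genotype. Predicted genes were left out, as were levels under 1 log2 CPM among the 24 leading genes and those ranked on the mean of both genotypes. Others were named from counts of 5 or fewer, as markers or after their values were seen (Sox10, Fos, Jun, Ccn2, Tnmd, Thra, the collagen I and III chains, small proteoglycans, Des and further Schwann cell genes). The 41 lists (1000 of 1001 entries matched a symbol in the files; 1 did not, Ahsp) and the named sets were chosen with earlier results of these data known. Positions are from GENCODE vM21, also GRCm38. A few genes that the rule picks are not reported here. Groups and sex came from the sample titles, and eGFP carriage means over 10 CPM.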

Additional observations from a re-analysis of the deposited data

Results flagged for a closer look

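Among the genes named above, single libraries stood apart from the rest of their group of 6 or 7 in 46 cases, by the ratio of the gap beside the extreme library to the group's range; chance alone gives this in about 1 of 20 groups. The ratio was taken on log2 CPM with the prior count, while the values listed here are CPM. Because the genes share the same libraries, the cases are not independent, and their number is not set against that rate. No explanation was tested.

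WT cage female replicate 1, the WT library with the smallest muscle share, accounts for many of them. It was lowest of its group for Prkaa2 (26.9, the other 6 at 94.3 to 114), Hagh (6.36), Ccny (42.0), Uchl1 (2.59), Aqp4 (8.63), Tbc1d4 (30.3), Crim1 (50.7), Ndufa8 (33.1), Cox5a (37.6), Pdhb (52.8), Gapdh (578), Gys1 (81.9), Mybpc1 (688), Myoz2 (199.7), Tfeb (9.32) and Fam214b (9.41). It was highest for Frmd4a (29.9), Ntf3 (8.73), Tpsb2 (13.9, the others at 1.28 to 2.02), Col5a3 (349, the others at 131 to 165), Timp4 (68.8), Atg16l1 (41.6) and Acly (71.8).

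The cKO running male replicate 2 library was lowest of its group for Ppp2r3c (6.34), Cox5a (16.3, the others at 44.9 to 70.0), Gapdh (427) and Mybpc1 (541). It was highest for Krt79 (6.37) and Flg (25.8, the others at 0.212 to 0.401).

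WT cage female replicate 3 was lowest of its group for Dlg4 (9.22), Mkx (12.9) and Serpinh1 (85.9), and WT cage female replicate 4 for Ndufa12-ps (0.237). WT running male replicate 2, the WT carrier of eGFP, was highest for Scx (105), Bop1 (152) and Jund (70.3), and WT running male replicate 3 was lowest for Mrps7 (10.5). Among cKO cage libraries, male replicate 2 was highest for Acot2 (43.6), Mrps7 (32.2) and Myoz2 (671), female replicate 1 was lowest for Pon2 (18.2), and female replicate 2 was lowest for Fam214b (12.7). Among cKO runners, female replicate 3 was highest for Rgcc (227) and Padi2 (27.4) and lowest for Mosmo (8.55), and male replicate 1 was highest for Crim1 (71.4).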

How the results depend on the processing

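The interaction called 0 genes under every alternative run but one, the fit with no filter on low counts (65). Genes with an unadjusted p under 0.05, 1377 as reported, numbered 868 with the muscle covariate and 732 with the eGFP covariate. There were 413 in females and 1646 in males. Leaving out WT cage female replicate 1 and cKO running male replicate 2 (added after seeing the data) gave 680. Leaving out WT running female replicate 2 and male replicate 3 gave 1909. Without WT running male replicate 2 and cKO cage female replicate 3 the count was 1763. With any 1 library left out it was 803 to 2210. The interaction by sex called 81 genes with no filter, 1 with DESeq2 and 0 with any 1 library left out.

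Calls for running moved more. In WT (25) they were 197 with no filter, 157 with DESeq2, 134 with limma-voom, 14 on log2(FPKM + 0.1), 294 with the muscle covariate and 16 with the eGFP covariate. They were 6 without WT running female replicate 2 and male replicate 3, 10 without WT running male replicate 2 and cKO cage female replicate 3, 12 without the libraries of the less common project, 59 without the pair of little muscle RNA, 1 in females and 3 in males. In cKO (8) they were 574 with no filter, 208 with DESeq2, 410 with limma-voom, 5 on log2(FPKM + 1) and 3 on log2(FPKM + 0.1), 28, 5 and 0 with the muscle, mitochondrial rRNA and eGFP covariates, 16, 4, 3 and 19 without the same sets of libraries, 0 in females and 30 in males. Leaving out 1 library gave 11 to 39 in WT, at most 15 without WT cage female replicates 2 or 4, WT cage male replicates 1 or 3, or WT running male replicate 2. It gave 3 to 60 in cKO, at most 5 without cKO cage female replicates 1, 2 or 3, cKO cage male replicates 1 or 3, cKO running female replicate 4 or cKO running male replicate 3, and 18 without WT running male replicate 3. With library project as a covariate, running called 19 genes in WT and 6 in cKO. The cause of these changes was not tested.

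With the replicate number as a block (replicate block), 12 genes were called in WT, 1 in cKO and 0 for the interaction, with 1701 at an unadjusted p under 0.05. Of 34 same-numbered pairs of libraries, 0 had a correlation of their deviations over 0.1 (-0.310 to 0.090). Their median was -0.020, beside -0.062 for other pairs. No clear sign of pairing by number was seen, but such correlations cannot exclude it. The muscle share interaction was -6.97 to -3.96 points with 1 library left out. Without both WT cage female replicate 1 and cKO running male replicate 2 it was negative but smaller in size than that range. The mitochondrial rRNA share interaction turned to 1.01 without the pair and ranged from -2.24 to 0.723 with 1 library left out, positive without WT cage female replicate 4 (0.415), WT running male replicate 1 (0.309), cKO cage male replicate 2 (0.523) or cKO running male replicate 2.

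For single genes, 1633 of 1670 values under other settings and 2193 of 2200 with 1 library left out kept their sign and side of the threshold. Signs turned for these. With limma-voom, Rgcc had 0.0154 and Flg -0.76. On log2(FPKM + 1), Rgcc had 0.22, Acot2 0.0763, Crim1 0.0267, Mrpl9 0.0727, Tfeb 0.0198, Relb 0.0074 and Fam214b 0.16, beside a median of 0.15 over all genes. On log2(FPKM + 0.1), Rgcc had 0.22, Acot2 0.0930, Crim1 0.0289, Mrpl9 0.0755, Tfeb 0.0192, Relb 0.0058 and Fam214b 0.17, beside 0.23. With the muscle covariate, Acot2 had 0.0947, Tbc1d4 0.0382 and Padi2 0.0229. In females, Uchl1 had 0.0538, Rgcc 0.57, Acot2 0.0914 and Thra -0.0663, and in males Crim1 had 0.0117. Without the pair, Crim1 had 0.0133 and Flg -0.49. Rgcc had 0.0554 without WT running female replicate 2 and male replicate 3, 0.0518 without WT running male replicate 2 and cKO cage female replicate 3, and -0.25 to 0.0904 with any 1 library left out. Prkaa1 had -0.0114 without WT cage female replicate 3, and Acot2 ranged from -0.29 to 0.10, positive without cKO cage male replicate 2. The number of libraries limits the precision, as the intervals above show.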
